A study of Mus musculus with 38 samples.

Results

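*Pth1r* and *Pthlh*, the genes for the parathyroid hormone receptor PTH1R and for its ligand, the parathyroid hormone-related protein PTHrP, were followed through every type of data in this series. Both were chosen by name. Each was found as a row of its own among the 35976 and 37108 genes of the 2 bulk RNA-seq tables and among the 20695 genes of the scRNA-seq table, so 2 genes of each table are described here. The receptor and its ligand lay mostly in different cell types with BMP4, while without it most molecules of both genes were counted in intermediate cells. Intermediate cells were 62.9% of the cells with BMP4 and 71.5% of those without. In CPM, a gene's unique molecules (UMIs) scaled to the total of the cell type, *Pth1r* was at 259 in the primitive endoderm-like cells (PrECLCs) of the BMP4+ culture and at no more than 14.2 CPM in any other cell type of the deposited annotation. *Pthlh* was near the limit of detection throughout, at no more than 0.874 FPKM in any bulk library and 1.06 CPM in any cell type, and most of its few UMIs lay in intermediate cells.

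PTH1R is a G protein-coupled receptor that binds both parathyroid hormone and PTHrP. It acts mainly through Gs, adenylyl cyclase, cAMP and protein kinase A, and also through Gq. PTHrP acts over short distances, between neighboring cells, and in the growth plate it forms a loop with Indian hedgehog. In the early mouse embryo the receptor is a classic gene of the primitive endoderm and of the parietal endoderm that arises from it, and PTHrP from the adjoining trophoblast is known to promote the parietal fate.

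All cells came from mouse embryonic fibroblasts (MEFs), taken at E13.5 for the bulk RNA-seq libraries. The fibroblasts received the factors Jdp2, Glis1, Esrrb and Sall4 (JGES) by virus, the same set without Sall4 (JGE), either set with Oct4 added (JGEO and JGESO), or SALL4 alone, as SALL4-WT or as SALL4-delN12, a form that lacks the N-terminal residues by which SALL4 recruits the NuRD complex. All of these RNA cultures shared the iCD3 medium, whose named additions are mLIF, bFGF, CHIR99021, SGC0946, Y27632, LSD1-HCL, TV and Vitamin C. BMP4+ cultures received 10 ng/ml of BMP4 for up to 7 days, and BMP4− cultures and both SALL4 forms received none. The 38 samples are 23 bulk RNA-seq libraries, 2 scRNA-seq samples, 9 ATAC-seq lists and 4 CUT&Tag lists, with 1 sample for each condition. A single pair of conditions could therefore not be tested, and the fits across samples that were run pool 4 pairs of libraries each, matched by day or by factor set. Among the 38 samples, MEFs without a factor were profiled by ATAC-seq only. Nothing in the labels ties any condition to more than 1 culture, though CUT&Tag replicates had been merged before peaks were called. Each bulk library is a mixture of the cell types in its culture.

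Which cells hold the receptor was read from the scRNA-seq samples of JGES day 7, with 11335 BMP4+ cells (median 21205 UMIs per cell) and 8685 BMP4− cells (median 12738). Only 2 cell barcodes were shared by the samples. The cell types are those in the authors' deposited annotation, in which the label ParE was read as PrECLC. Of the 6 primitive endoderm markers (*Gata4*, *Sox17*, *Sox7*, *Dab2*, *Lama1* and *Foxa2*), 6 in the BMP4+ and 5 in the BMP4− PrECLCs were at 10 CPM or more, with summed levels of 1071 and 794 CPM against 8.8 to 149 CPM in the other cell types. Parietal endoderm markers summed to 4402 and 4197 CPM in the PrECLCs, above the other types at 116 to 2480 CPM, so these markers do not separate a primitive from a parietal reading of the label. The 142 BMP4− PrECLCs also held 876 CPM of the 6 pluripotent markers, against 23.0 CPM in the BMP4+ PrECLCs.

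In the BMP4+ sample, *Pth1r* was at 259 CPM in PrECLCs (95% Poisson interval 255 to 263, from 15916 UMIs in 2372 cells). It was at 5.59 CPM in intermediate cells (5.23 to 5.97), at 5.24 CPM in endothelial cells (4.51 to 6.05) and at 8.92 CPM in placenta-like cells (7.31 to 10.8). The receptor was thus 45.3-fold higher in PrECLCs than in all other BMP4+ cells pooled, and 3 of 5759 genes at 20 CPM or more had a larger ratio. The intervals of intermediate and endothelial cells overlapped. These intervals, and all others here, cover counting error within 1 culture and not the spread between cultures.

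In the BMP4− sample the order was the same at its top. *Pth1r* was at 130 CPM in PrECLCs (114 to 147, from 246 UMIs), at 14.2 CPM in intermediate cells (13.4 to 15.03), at 5.11 CPM in endothelial cells (3.696 to 6.88) and at 2.02 CPM in pluripotent cells (1.54 to 2.60). The level in PrECLCs was 12.3-fold that of the other BMP4− cells, and 47 of 4628 genes had a larger ratio. PrECLCs therefore held 1.99 times as much *Pth1r* in CPM with BMP4 as without, whereas intermediate cells held 2.54 times as much without BMP4 as with it, and in both types the counting intervals of the samples did not overlap. Marker lists moved in both classes. In PrECLCs the summed visceral endoderm markers were at 574 CPM with BMP4 and 274 CPM without, the placenta-like markers at 918 and 470 CPM, and the primitive endoderm and pluripotent markers as given above, and their part in the 1.99-fold ratio was not tested. In intermediate cells the direction of the lists varied. The summed fibroblast markers were at 1093 CPM with BMP4 and 193 CPM without, the parietal endoderm markers at 2480 and 344 CPM, the placenta-like markers at 493 and 144 CPM, and the pluripotent markers at 19.7 and 363 CPM, and their part in the 2.54-fold ratio was not tested. The *Pth1r* levels of the endothelial cells of the 2 samples had overlapping intervals, while those cells differed in marker lists (pluripotent markers 4.15 CPM with BMP4 and 306 CPM without, endothelial markers 877 and 517 CPM).

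**Figure D1:**
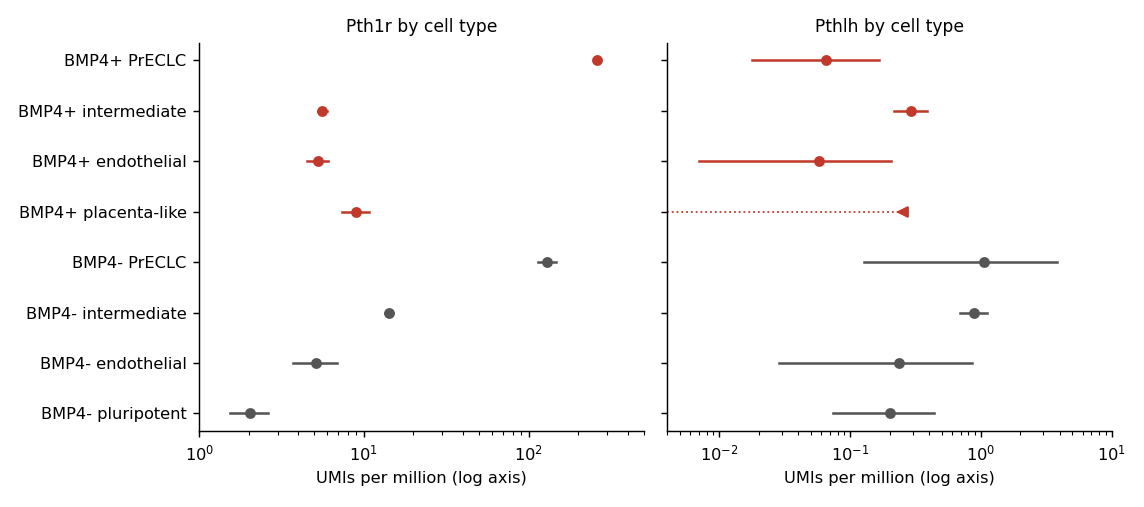
*Pth1r* (left) and *Pthlh* (right) in CPM on log axes, for each cell type of the BMP4+ (red) and BMP4− (gray) samples. Points are levels and lines are 95% Poisson intervals, and the arrow marks the limit of 3 UMIs where no UMI was found. PrECLCs stood apart for the receptor at 259 and 130 CPM, and no type stood apart in this way for the ligand.

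Seen cell by cell, the BMP4+ PrECLCs had a median of 6 *Pth1r* UMIs per cell (quartiles 3 and 9, highest 38), and the BMP4− PrECLCs a median of 1. At least 1 UMI was found in 92.2% of BMP4+ PrECLCs (95% exact binomial interval 91.0 to 93.2%) and in 64.8% of BMP4− PrECLCs (56.3 to 72.6%). After each cell was thinned to 4000 UMIs, which left out no cell, these shares were 58.6% (56.6 to 60.6%) and 38.03% (30.02 to 46.5%). The order thus held at equal depth.

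The shares of the other cell types were set beside that of endothelial cells. In BMP4+ endothelial cells 8.12% of cells had a *Pth1r* UMI (6.77 to 9.65%) at a median depth of 21763 UMIs. The share of intermediate cells was 8.08% (7.46 to 8.74%) at a median of 19594 UMIs, and that of placenta-like cells was 9.35% (6.64 to 12.7%) at 28906 UMIs. Neither share lay above the endothelial share beyond counting error. In CPM, however, the placenta-like cells lay above the endothelial cells with no overlap of the intervals, and were at 5.71 CPM without the 6% of cells with the most UMIs. Without BMP4 the picture differed: 13.4% of intermediate cells had a UMI (12.6 to 14.3%) at a median depth of 11892 UMIs, against 6.71% of endothelial cells (4.69 to 9.25%) at 15083 UMIs and 3.07% of pluripotent cells (2.33 to 3.97%) at 15444 UMIs. Thinned to 4000 UMIs, the shares were 5.38%, 1.58% and 0.603%. The endothelial share is thus not a floor, since that of pluripotent cells of like depth was lower. The BMP4− intermediate cells were the only type other than PrECLCs whose share lay above that of the endothelial cells of the same sample beyond counting error.

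The intermediate cells were then divided by how many of the 6 primitive endoderm markers had a UMI. In the BMP4+ sample *Pth1r* was at 3.28 CPM in cells with 0 markers, at 4.41 CPM with 1, at 7.69 CPM with 2 and at 41.3 CPM (36.6 to 46.3) with 3 or more, and the 182 cells of the last class held 31.6% of all *Pth1r* UMIs of the intermediate cells. Their median depth was 39017 UMIs, against 17856 in cells with 0 markers, and no doublet caller was run. In the BMP4− sample the level was 14.1, 14.8 and 11.9 CPM with 0, 1 and 2 markers, and the 4799 of 6211 cells with 0 markers held 73.6% of the UMIs. With 3 or more markers it was 16.96 CPM, from 4 UMIs in 12 cells. The interval of that class, 4.62 to 43.4 CPM, holds the BMP4+ level of 41.3 CPM, so a like rise was not excluded.

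**Figure D2:**
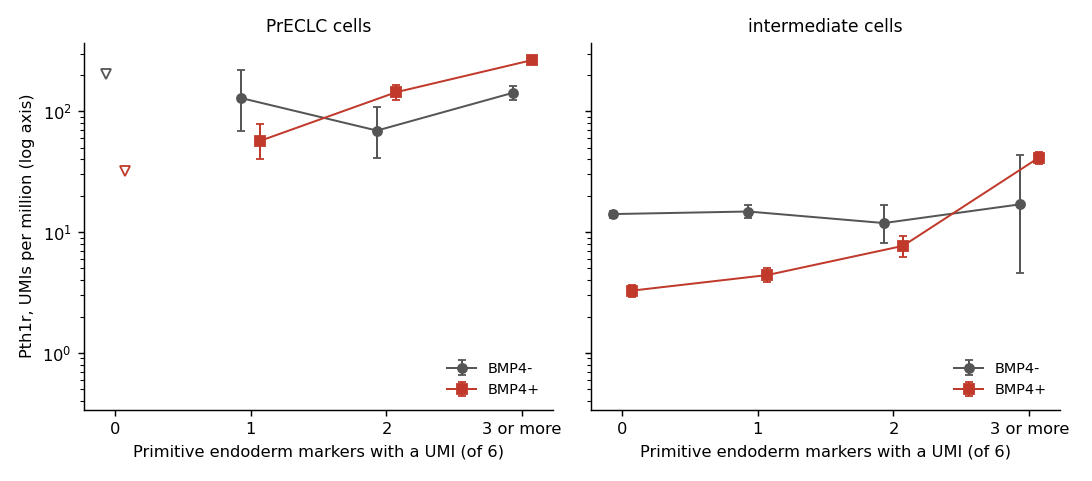
*Pth1r* in CPM on a log axis, in PrECLCs (left) and intermediate cells (right), by the number of 6 primitive endoderm markers with a UMI. Points are levels, bars are 95% Poisson intervals and open triangles are limits of 3 UMIs where no *Pth1r* UMI was found. In BMP4+ intermediate cells the level went from 3.28 to 41.3 CPM. In BMP4− intermediate cells it lay between 11.9 and 14.8 CPM with 0 to 2 markers, and at 16.96 CPM (4.62 to 43.4) with 3 or more.

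The genes most like *Pth1r* over the 8 cell types with at least 100 cells were *Foxa2* (Pearson r = 0.99 of log2(CPM + 1)), *Txndc5* (0.98), *Dab2* (0.98), *Ang* (0.97) and *Glul* (0.97), among 7494 genes. This is a description over 8 points that share 2 libraries. *Foxa2*, an endoderm transcription factor, had 61.7 CPM in PrECLCs with BMP4 and 34.9 CPM in those without. It also shared the raised level of BMP4− intermediate cells, at 7.14 CPM against 2.56 CPM in BMP4+ intermediate cells. The endocytic adaptor *Dab2* did not share it: its level in PrECLCs was 35.02-fold that of intermediate cells with BMP4 and 39.0-fold without, while the same ratio went from 46.4 to 9.17 for *Pth1r* and from 24.1 to 4.89 for *Foxa2*.

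The makeup of the cultures bears on every level of a whole sample. PrECLCs were 20.9% of BMP4+ cells and held 93.0% of their *Pth1r* UMIs (92.7 to 93.4%). In the BMP4− sample PrECLCs were 1.64% of cells and held 16.1% of the UMIs (14.3 to 18.0%). Intermediate cells were 71.5% of cells and held 77.2% of the UMIs (75.003 to 79.3%). Over all cells, *Pth1r* was at 63.5 CPM with BMP4 (62.6 to 64.5) and at 12.4 CPM without (11.8 to 13.1). Most of the *Pth1r* RNA of the culture thus came from PrECLCs with BMP4 and from intermediate cells without it. The share held by BMP4− intermediate cells was near their share of the cells, and their level was 14.2 CPM.

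The ligand was rare in every cell type. *Pthlh* gave 53 UMIs in 37 of 11335 BMP4+ cells and 83 UMIs in 67 of 8685 BMP4− cells, which is 0.197 CPM (0.147 to 0.257) and 0.674 CPM (0.537 to 0.835). Intermediate cells held 47 of the 53 UMIs (88.7%, 77.0 to 95.7%) and 73 of the 83 (88.0%, 79.0 to 94.1%), while they were 62.9% and 71.5% of the cells. Their levels were 0.292 CPM with BMP4 (0.214 to 0.388) and 0.878 CPM without (0.688 to 1.104). The ligand was thus lower with BMP4 in intermediate cells, in the same direction as the receptor there. The intermediate class differed between the samples in the marker lists given above, and also in keratinocyte markers, at 95.01 CPM with BMP4 and 5.13 CPM without, and their part in this result was not tested.

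*Pthlh* outside the intermediate cells rested on single UMIs. BMP4+ PrECLCs held 4 UMIs in 3 of 2372 cells (0.0651 CPM, 0.0177 to 0.167), endothelial cells 2 UMIs (0.0572 CPM), and the 385 placenta-like cells none, which allows a share of up to 0.779% of cells with a UMI. BMP4− PrECLCs held 2 UMIs in 142 cells (1.06 CPM, 0.128 to 3.82), and pluripotent cells 6 UMIs in 1825 cells (0.202 CPM). Only BMP4+ intermediate cells lay above the PrECLCs of their own sample beyond counting error. Keratinocytes are a known source of PTHrP, but the 68 BMP4+ cells with UMIs of at least 3 keratinocyte markers held no *Pthlh* UMI, and no BMP4− cell met that rule. So few cells allow up to 1.48 CPM at 3 UMIs, above every *Pthlh* level found in a cell type, so the count of 0 does not place them below the other cells. Trophoblast is another known source, and the 2932 BMP4+ cells with at least 3 of the placenta-like markers held 11 UMIs (0.126 CPM, 0.0628 to 0.225). Only 357 of these 2932 cells were placenta-like cells in the annotation, and together they held *Pth1r* at 66.7 CPM. In the BMP4− sample the 209 cells that met this rule held 5 *Pthlh* UMIs (1.23 CPM, 0.400 to 2.88). The annotation has no placenta-like class in that sample, and the interval holds the *Pthlh* level of BMP4− intermediate cells. Of the 37 and 67 *Pthlh* cells, 30 and 59 had a single UMI, and the highest count in a cell was 6 in both samples.

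Few cells held both receptor and ligand, and only 37 BMP4+ and 67 BMP4− cells had a *Pthlh* UMI at all. UMIs of both genes were in 8 BMP4+ and 11 BMP4− cells, of which 6 and 10 were intermediate cells and 2 and 1 were PrECLCs. Over all cell types, 21.6% (9.83 to 38.2%) of BMP4+ *Pthlh* cells also had a *Pth1r* UMI, against 25.7% of all BMP4+ cells. The BMP4− shares were 16.4% (8.49 to 27.5%) and 11.7%, and both intervals hold the share of all cells. Among *Pthlh* intermediate cells, 18.8% (7.21 to 36.4%) of the BMP4+ and 17.2% (8.59 to 29.4%) of the BMP4− cells also had a *Pth1r* UMI, against 8.08% and 13.4% of all intermediate cells. Both intervals hold the share of all intermediate cells of their sample, and *Pthlh* cells were deeper, at medians of 24818.5 and 13002.5 UMIs against 19582 and 11872 in the other intermediate cells. The 5 genes most like *Pthlh* over the 8 cell types were *Zdhhc20* (r = 0.90), *Wbp1* (0.89), *Dpm3* (0.88), *Srek1ip1* (0.86) and *Dbp* (0.86), a ranking that rests on few *Pthlh* UMIs.

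The course of both genes was read from bulk RNA-seq, in FPKM. Differences are given as differences of log2(FPKM + 1), called at a size of at least 1, and the background is the share of genes at an FPKM of 1 or more in either library that passed the same size in the same direction. Low FPKM values were whole multiples of a fixed step in each library, so each value could be turned into a number of counted reads or read pairs, called units here, and into an exact Poisson interval. The steps put the depth of the JGES libraries at 13.4 to 16.3% of the deepest library in the table of 17 and that of the SALL4 libraries at 76.7 to 100%. Fewer cells of a type and less RNA per cell cannot be told apart in any bulk library.

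In JGES cells without BMP4, *Pth1r* had 1.58 FPKM (day 0), 0.204 (day 1), 0.434 (day 3), 1.58 (day 5) and 7.78 (day 7, 6.00 to 9.91, from 65 units). With BMP4 the values were 1.098 FPKM (day 1), 0.448 (day 3), 2.08 (day 5) and 18.4 (day 7, 15.7 to 21.4, from 167 units). Days 0 to 5 rested on 2 to 19 units each, and only day 7 stood clear of the earlier days in both series. The difference between BMP4+ and BMP4− was 1.14 at day 7, a ratio of 2.37 (1.77 to 3.20), where 10.3% of 15347 genes rose as much and 1229 genes rose more. At day 1 it was 0.80 (3.75% of genes rose by at least 1), with a ratio of 5.38 from 10 and 2 units and an interval of 1.15 to 50.5. At day 3 it was 0.01 (background 6.81%) and at day 5 it was 0.26 (background 8.78%), and both ratio intervals included 1. *Pth1r* was thus called at day 7 only with a pseudocount of 1, and a rise of that size was common among all genes. With a pseudocount of 0.1 the difference at day 1 was 1.98 and passed a size of 1 as well. BMP4+ was the higher of the pair at all 4 days. A limma fit with day as a block, added after seeing the data, gave a mean difference of 0.55 (SE 0.27, adjusted p = 0.288 over 17047 genes), where 0.346% of genes rose at an adjusted p under 0.05. Between the BMP4− and BMP4+ libraries of day 7 the summed primitive endoderm markers went from 69.3 to 150.999 FPKM, with 6 of 6 at an FPKM of 1 or more in both. The 6 fibroblast markers went from 119 to 935 FPKM and the 6 pluripotent markers from 949 to 42.4 FPKM. Parietal endoderm markers went from 607 to 1556 FPKM, visceral endoderm markers from 35.4 to 143, placenta-like markers from 84.5 to 249 and keratinocyte markers from 2.58 to 85.6, and the part of these lists in the result was not tested.

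*Pthlh* was listed at 0 in JGES cells at days 0, 1 and 3 without BMP4 and at days 1 and 3 with it. At this depth a count of 0 allows 0.676 to 0.743 FPKM at 3 units, which is above most *Pthlh* values in the series, so absence was not shown. Without BMP4 it was at 0.874 FPKM at day 5, from 4 units (0.238 to 2.24), and at 0.264 at day 7, from 1 unit. With BMP4 it was at 0.242 and 0.243 FPKM at those days, from 1 unit each. No difference was called, though with a pseudocount of 0.1 that at day 5 was −1.51, and the ratio at day 5 was 0.277 with an interval of 0.00563 to 2.80.

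SALL4-delN12 alone gave the highest level of the receptor in the table of 17. With SALL4-WT, *Pth1r* had 1.27 (day 1), 1.55 (day 5), 1.07 (day 9) and 3.76 FPKM (day 11). With SALL4-delN12 it was at 2.85, 4.16, 13.7 and 45.0 FPKM at the same days. SALL4-delN12 lay above SALL4-WT at each of the 4 days, and none of the counting intervals of a pair overlapped. The difference grew from 0.76 at day 1 (ratio 2.25, 1.67 to 3.05; 4.18% of genes rose by at least 1) to 1.02 at day 5 (ratio 2.68, 2.06 to 3.52; 4.67%). It was 2.82 at day 9 (ratio 12.8, 9.91 to 16.7; 6.09%) and 3.27 at day 11 (ratio 11.98, 10.4 to 13.9; 6.55%). Only 66 of 13483 genes at day 9 and 27 of 13946 at day 11 rose more than *Pth1r*. The same fit with day as a block gave a mean difference of 1.97 over the 4 pairs (SE 0.46, limma adjusted p = 0.0457 over 14741 genes), where 5.13% of genes rose at an adjusted p under 0.05. This call was lost without the filter on FPKM (adjusted p = 0.301) and without day 5 (0.0947), day 9 (0.175) or day 11 (0.124), and held without day 1 (0.0188). The days are points of 1 course and not replicates of a condition, and the fit takes any change of the difference over days as error. Marker lists of several cell types differed between the forms, some of them from day 1 on, and their part in the *Pth1r* result was not tested. Primitive endoderm markers summed to 64.2 and 132 FPKM in SALL4-delN12 at days 9 and 11 against 30.8 and 22.0 in SALL4-WT, with 6 of 6 at an FPKM of 1 or more against 3 and 4. Macrophage markers summed to 165, 173, 167 and 348 FPKM with SALL4-delN12 at days 1, 5, 9 and 11, with 6 of 6 at an FPKM of 1 or more. With SALL4-WT they summed to 116, 28.4, 19.1 and 19.6 FPKM, with 5 or 6 of 6. Placenta-like markers summed to 646, 638, 660 and 517 FPKM with SALL4-delN12 at the same days, against 109, 110, 144 and 132 FPKM with SALL4-WT. Visceral endoderm markers summed to 19.4 against 2.57 FPKM at day 11. In the BMP4+ scRNA-seq sample, the 13 cells with UMIs of at least 3 macrophage markers held 20 *Pth1r* UMIs, all in 3 cells.

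*Pthlh* stayed low in both SALL4 series. It was at 0.268, 0.0927, 0.365 and 0.0400 FPKM with SALL4-WT and at 0, 0.492, 0.249 and 0.704 FPKM with SALL4-delN12. No difference was called with a pseudocount of 1. With a pseudocount of 0.1 those at days 5 (1.62) and 11 (2.52) passed a size of 1. The SALL4-delN12 library was the lower of the pair at days 1 and 9 and the higher at days 5 and 11. At day 11 the ratio rested on 18 units against 1 and was 17.6, with an interval of 2.78 to 734, and at day 5 it was 5.30 (1.2005 to 48.4) from 13 and 2 units. In the SALL4-delN12 libraries of days 5 to 11 both genes were detected, *Pthlh* below 1 FPKM.

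**Figure D3:**
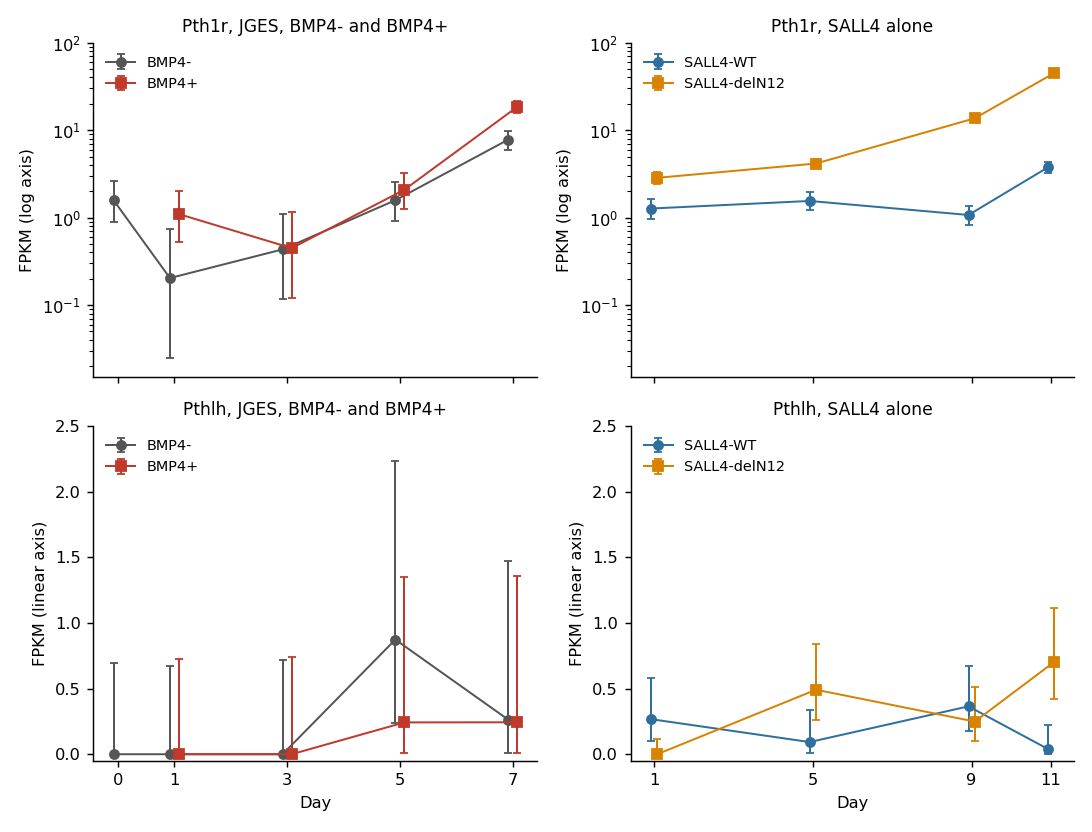
*Pth1r* (top, log axis) and *Pthlh* (bottom, linear axis) in FPKM by day, in JGES cells (left) and in cells with SALL4 alone (right). Each point is 1 library and bars are 95% Poisson intervals of the counted units, or reach the limit of 3 units where none was counted. *Pth1r* reached 45.0 FPKM at day 11 with SALL4-delN12, and *Pthlh* stayed under 1 FPKM in all 17 libraries.

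In order of level over the 17 libraries, SALL4-delN12 day 11 (45.0 FPKM) came first, then JGES BMP4+ day 7 (18.4), SALL4-delN12 day 9 (13.7), JGES BMP4− day 7 (7.78), SALL4-delN12 day 5 (4.16), SALL4-WT day 11 (3.76) and SALL4-delN12 day 1 (2.85). The first 4 were each separated from the next by non-overlapping counting intervals. From SALL4-delN12 day 5 downward every library overlapped with the next in order, down to JGES BMP4− day 1 at 0.204 FPKM. Among genes at an FPKM of 1 or more, *Pth1r* stood at the 87.8 percentile in SALL4-delN12 day 11 and at the 73.3 percentile in JGES BMP4+ day 7.

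The factor sets were compared at day 7 within the table of 8 libraries. Without BMP4, *Pth1r* was at 2.47 FPKM in JGE, 7.58 in JGES, 20.3 in JGEO and 75.7 in JGESO. With BMP4 it was at 1.43, 18.0, 20.6 and 48.8 FPKM. The highest level of the table was thus in JGESO without BMP4, and *Pth1r* was higher in every library with Oct4 than in JGE. The depth of the JGES libraries was 13.6 and 14.7% of the deepest library of this table, and that of the other 6 was 72.3 to 100%. Limma fits with the pair as a block, added after seeing the data, compared libraries that differ in 1 factor. With Sall4 the mean difference over 4 pairs was 1.83 (SE 0.34, adjusted p = 0.0438 over 17641 genes, higher in 4 of 4 pairs), where 0.709% of genes rose at an adjusted p under 0.05. This call was lost without the filter on FPKM (adjusted p = 0.269), without the JGES and JGE pair with BMP4 (0.119) and without the JGESO and JGEO pair lacking BMP4 (0.154). With Oct4 the limma mean difference was 2.58 (SE 0.34, adjusted p = 0.0783), and *Pth1r* was the higher with Oct4 in 4 of 4 pairs. No gene was called for Oct4 (0% of genes rose), although 5183 had an unadjusted p under 0.05. Without the JGEO and JGE pair with BMP4, *Pth1r* was called for Oct4 at a limma adjusted p of 0.0156. The pairs share libraries across these fits and are not replicates of a condition. The JGES libraries belong to the day series of the table of 17. In pairs that hold such a library, the factor cannot be told apart from the library series. Marker lists differed across both factors. With Sall4, macrophage markers went from 55.4 to 0.653 FPKM without BMP4 and from 36.1 to 2.74 with it (JGE to JGES). From JGEO to JGESO they went from 28.0 to 12.3 and from 26.9 to 13.5 FPKM. In the JGES series they were at 3.37 FPKM at day 0. Placenta-like markers went from 32.1 to 264 and from 44.1 to 467 (JGEO to JGESO), and visceral endoderm markers from 1.62 to 206 and from 6.85 to 206 (JGEO to JGESO). With Oct4, pluripotent markers went from 14.1 to 333 FPKM without BMP4 and from 8.71 to 501 with it (JGE to JGEO). From JGES to JGESO they went from 925 to 460 FPKM without BMP4 and from 41.4 to 278 with it. Parietal endoderm markers went from 592 to 2998 and from 1521 to 2408 (JGES to JGESO), and from 1095 to 752 and from 819 to 818 (JGE to JGEO). The part of depth and of these lists in the differences was not tested. The tables were normalized separately, and the JGES columns are the same libraries as before, with FPKM a median of 0.975 and 0.978 times those of the table of 17.

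The response to BMP4 differed in direction between factor sets. With factor set as a block the limma mean difference was 0.01 (SE 0.30, adjusted p = 0.997), with 2 of 4 sets higher with BMP4, and it was −0.37 without JGES. No gene was called in that fit (0% of genes rose), and 1151 had an unadjusted p under 0.05. It was 1.15 in JGES (ratio 2.37, 1.77 to 3.21; 10.2% of genes rose by at least 1), the only set in which it was called. It was 0.02 in JGEO (ratio 1.01, 0.925 to 1.11; background 2.26%), −0.52 in JGE (ratio 0.578, 0.422 to 0.786; 4.78% of genes fell by at least 1) and −0.62 in JGESO (ratio 0.645, 0.613 to 0.678; 3.52% fell). The intervals of JGE and JGESO lay below 1, so those 2 falls, though not called, were beyond counting error. In JGE endothelial markers went from 26.3 to 123 FPKM with BMP4 and fibroblast markers from 935 to 582. Parietal endoderm markers were lower with BMP4 in both sets, going from 1095 to 819 FPKM in JGE and from 2998 to 2408 in JGESO. In JGESO fibroblast markers went from 417 to 722 FPKM with BMP4, placenta-like markers from 264 to 467, keratinocyte markers from 35.5 to 166 and pluripotent markers from 460 to 278, and their part in the result was not tested. The JGEO difference turned to −0.013 under median-ratio scaling. Whether the responses differ between sets beyond the spread of cultures was not tested.

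The primitive endoderm markers did not follow the receptor through all sets. They summed to 17.4 and 19.6 FPKM in JGE without and with BMP4, 67.6 and 148 in JGES, 24.5 and 39.6 in JGEO and 289 and 254 in JGESO. JGEO without BMP4 thus had 20.3 FPKM of *Pth1r* with 24.5 FPKM of markers and 3 of 6 at an FPKM of 1 or more, while JGES without BMP4 had 7.58 FPKM of *Pth1r* with 67.6 FPKM of markers and 6 of 6. Visceral endoderm markers summed to 1.62 FPKM in JGEO without BMP4 and none of the 7 reached 1 FPKM. *Pthlh* was at 0.0486 to 0.431 FPKM in all 8 columns, from 1 to 10 units. With BMP4 it went from 6 units to 1 in JGE, from 10 to 4 in JGEO and from 10 to 4 in JGESO, and each ratio interval included 1. In JGE this difference was −1.29 with a pseudocount of 0.1.

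**Figure D4:**
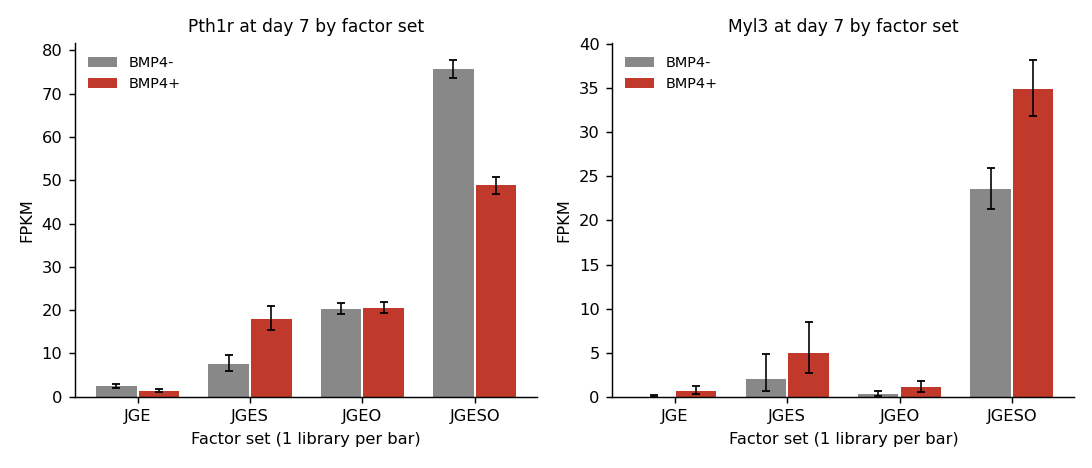
*Pth1r* (left) and its overlapping neighbor *Myl3* (right) in FPKM at day 7 by factor set, without (gray) and with (red) BMP4. Each bar is 1 library and error bars are 95% Poisson intervals of the counted units. In JGESO, *Pth1r* was at 75.7 and 48.8 FPKM and *Myl3* at 23.5 and 34.9 FPKM.

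The genes most like *Pth1r* over the 17 libraries were *Myl3* (r = 0.94 of log2(FPKM + 1)), *Palm3* (0.93), *Rhox6* (0.93), *Cldn7* (0.93) and *Gata4* (0.92), among 12350 genes. The libraries share time series, so this is a description. *Gata4*, a primitive endoderm transcription factor, was at 29.3 FPKM and *Cldn7*, an epithelial tight junction gene, at 32.0 FPKM in SALL4-delN12 day 11. *Rassf7* (0.84), *Stmn1* (0.80), *Samd1* (0.77), *Ptpn6* (0.76) and *Cdx2* (0.76) were the most like *Pthlh*, over values that rest on 0 to 18 units.

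*Myl3*, a myosin light chain gene of heart and slow muscle, lies next to *Pth1r* on the opposite strand. The annotated gene bodies share 5285 bp and their exons 95 bases, and the sources used here do not state that the bulk libraries keep strand, so reads in the shared stretch cannot be assigned with certainty. *Myl3* was at 12.1 FPKM in SALL4-delN12 day 11 and at no more than 0.143 FPKM with SALL4-WT. The levels of the pair parted elsewhere: in JGEO without BMP4, *Pth1r* was at 20.3 FPKM with *Myl3* at 0.277, and in JGESO *Myl3* rose with BMP4 by a ratio of 1.48 (1.30 to 1.70) where *Pth1r* fell. In single cells *Myl3* had 35.6 CPM in PrECLCs with BMP4 and 17.99 CPM in those without, and no more than 2.49 CPM in any other type.

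The other genes of the PTH and PTHrP pathway were taken from a list of 41 with the members (ligands, receptors, partners, G proteins, cyclases, kinases, phosphodiesterases, cAMP-responsive genes and *Ihh*). At JGES day 7, 8 of 32 other genes at an FPKM of 1 or more rose with BMP4 and 1 fell, where 10.3% of all genes rose and 13.8% fell. Their median difference was 0.52 against −0.14 over all genes tested. In this comparison the median ratio of all genes lay 0.119 below 0 on the log2 scale, and at day 5 it lay 0.168 below. In SALL4-delN12 against SALL4-WT, 3 of 31 rose and 2 fell at day 9 (all genes 6.09% and 5.75%), and 4 of 31 rose and 0 fell at day 11 (6.55% and 6.58%), with medians of −0.09 and −0.21 against 0.03 and 0.01. In these comparisons 26 and 27 of the 31 passed the size in neither direction. In the other comparisons the counts were small. With BMP4, 0 of 30 rose and 0 fell at JGES day 1 (3.75% of all genes rose and 5.72% fell), 1 of 30 rose and 0 fell at day 3 (6.81% and 8.99%), and 4 of 31 rose and 2 fell at day 5 (8.78% and 13.2%). In the table of 8, 2 of 32 rose and 2 fell in JGE (4.28% of all genes rose and 4.78% fell), 8 of 32 rose and 1 fell in JGES (10.2% and 13.7%), 0 of 31 moved in JGEO (2.26% and 1.95%) and 0 of 25 in JGESO (5.29% and 3.52%). With SALL4-delN12, 1 of 29 rose and 2 fell at day 1 (4.18% and 5.63%), and 1 of 28 rose and 2 fell at day 5 (4.67% and 5.19%).

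Among receptor partners, *Ramp2*, whose product binds PTH1R and other receptors of its class, went from 1.91 to 24.6 FPKM at day 11 (difference 3.14) and from 0.904 to 5.46 at day 9 (1.76). At JGES day 7 it went from 10.9 to 25.8 FPKM with BMP4 (1.17). In single cells *Ramp2* was highest in endothelial cells, at 319 and 145 CPM with and without BMP4, and next in PrECLCs, at 71.4 and 88.9 CPM. *Arrb1*, an arrestin that ends receptor signaling, went from 5.79 to 27.1 FPKM at JGES day 7 (2.05), and *Arrb2* from 2.16 to 6.65 at day 11 with SALL4-delN12 (1.27). *Slc9a3r2*, a scaffold of the receptor, was lower with SALL4-delN12 at day 9, at 6.84 against 15.7 FPKM (−1.09). The related scaffold *Slc9a3r1* was at 241 and 87.3 CPM in PrECLCs of the BMP4+ and BMP4− samples.

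*Ihh*, the Indian hedgehog gene of the growth plate loop, was higher with the receptor in 3 comparisons. It was at 9.44 against 2.25 FPKM at JGES day 7 (difference 1.68), at 2.52 against 0.0690 FPKM at day 9 with SALL4-delN12 (1.72) and at 10.8 against 0.302 FPKM at day 11 (3.18). The pair parted in others: in JGEO *Ihh* went from 10 to 45 units with BMP4 (ratio 4.997, 2.48 to 11.1) where *Pth1r* hardly moved, and at day 1 it had 0 units with SALL4-delN12 and 13 with SALL4-WT. In single cells *Ihh* had 48.9 CPM in PrECLCs with BMP4 and 48.1 CPM in those without, and at no more than 5.56 CPM in any other type. Its level per PrECLC RNA did not differ between samples beyond counting error (47.2 to 50.7 and 38.8 to 59.1), unlike that of *Pth1r*. *Pth2r*, the second receptor of the family, had 2 UMIs in BMP4+ intermediate cells, 1 in BMP4+ endothelial cells and 0 elsewhere.

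Of the genes below the receptor, several moved with BMP4. At JGES day 7 *Mef2c*, a transcription factor, went from 0.370 to 4.77 FPKM (difference 2.07), *Fos*, an immediate early gene, from 4.73 to 13.2 (1.31), and *Gnas*, which encodes Gs alpha, from 68.01 to 147 (1.099). *Prkar2b*, a regulatory subunit of protein kinase A, went from 4.41 to 0.711 FPKM (−1.66). In single cells *Mef2c*, *Fos* and *Gnas* were higher in intermediate cells than in PrECLCs. In BMP4+ intermediate cells *Mef2c* was at 20.7, *Fos* at 92.2 and *Gnas* at 1332 CPM, against 4.36, 32.5 and 723 CPM in BMP4+ PrECLCs and 5.07, 42.3 and 642 CPM in BMP4− intermediate cells. *Arrb1* was likewise at 19.7 CPM in BMP4+ intermediate cells and at 3.84 CPM in PrECLCs. With SALL4-delN12, *Sik1*, a kinase gene induced by cAMP, was at 25.03 against 5.59 FPKM at day 9 (1.98) and at 18.0 against 7.61 at day 11 (1.14), while *Fos* was at 15.7 against 65.7 at day 9 (−1.99).

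The loci were read on mm10 with the GENCODE vM21 annotation. *Pth1r* (ENSMUSG00000032492) lies at chr9:110722085-110747145 on the minus strand, with 6 annotated start sites, and *Pthlh* (ENSMUSG00000048776) at chr6:147252101-147264183 on the minus strand, with 2. Within the genes and 20 kb to each side, the number of ATAC-seq peaks at *Pth1r* was 15 in MEFs, 7 to 9 with SALL4-WT and 5 to 7 with SALL4-delN12, and at *Pthlh* 9, 5 and 4 to 7. The lists hold between 78517 and 125470 peaks, and the score that the peak caller gave each peak starts at 50. By this count, over lists of unlike length, the *Pth1r* locus was thus not more open in the cells with the most *Pth1r* RNA. Within 50 kb, SALL4-delN12 had 12, 12, 14 and 15 peaks at days 1, 5, 9 and 11, so its last day had the most. SALL4-WT had 16, 21, 17 and 16 at the same days.

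Within 20 kb of *Pth1r* the highest peak of every ATAC-seq list was in the same intron, at chr9:110732276-110733165. Its score was 1222 in MEFs, 312, 866, 564 and 712 with SALL4-WT at days 1, 5, 9 and 11, and 371, 478, 563 and 374 with SALL4-delN12. SALL4 itself had a CUT&Tag peak there in both forms (scores 52.6 and 67.4), and H3K27ac had one with SALL4-delN12 only (60.2). That H3K27ac peak stood at the 10.5 percentile of its list of 45599 peaks, and the SALL4-WT list holds 19841. By its MEF peak, the intron site was open before any factor was added. Scores of different lists were not scaled to each other. Within its own list the peak stood at the 95.5 percentile of scores in MEFs. At day 11, where *Pth1r* RNA was higher with SALL4-delN12, it stood at the 92.3 percentile with SALL4-WT and the 87.5 percentile with SALL4-delN12. Its place thus did not follow the RNA at that day. A site over the first exons, at chr9:110742165-110742657, had a peak in 6 lists (scores 60.4 to 186) and none in SALL4-WT day 1, SALL4-WT day 9 and SALL4-delN12 day 11. No peak of the 13 lists covered any of the 6 GENCODE start sites of *Pth1r*, while a RefSeq start at position 110742610 lies within the MEF peak of the first-exon site. Within 2 kb of a start site lay 5 ATAC-seq peaks in MEFs, 0 with SALL4-delN12 at day 11 and 1 or 2 in each of the other 7 lists.

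The middle 300 bases of the intron site are shown on the minus strand of mm10, as a site with a peak in all 9 ATAC-seq lists. Shown with them, on the same strand, is the promoter window from 250 bases before to 50 after the RefSeq start that lies within a MEF peak. Capitals mark matches to GGGNGGGG on either strand, the letters of a KLF-type motif.
Pth1r intron site, chr9:110732633-110732932: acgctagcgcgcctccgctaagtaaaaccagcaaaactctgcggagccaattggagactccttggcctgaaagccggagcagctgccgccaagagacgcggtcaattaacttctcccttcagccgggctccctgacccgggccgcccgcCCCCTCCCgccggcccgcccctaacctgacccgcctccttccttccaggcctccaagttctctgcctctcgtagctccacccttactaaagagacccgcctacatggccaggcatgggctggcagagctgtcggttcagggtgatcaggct
Pth1r promoter window, chr9:110742561-110742860: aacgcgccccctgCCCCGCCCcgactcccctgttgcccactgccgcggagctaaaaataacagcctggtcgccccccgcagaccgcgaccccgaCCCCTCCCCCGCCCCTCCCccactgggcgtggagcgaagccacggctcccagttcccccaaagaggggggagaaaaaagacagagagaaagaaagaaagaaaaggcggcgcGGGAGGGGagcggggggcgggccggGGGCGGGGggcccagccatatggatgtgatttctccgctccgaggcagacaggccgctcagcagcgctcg

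The 8 motifs searched on both strands were AGATAA for GATA factors, ACAATNG for SOX factors, TGTTTAC for FOX factors, TGANTCA for AP-1, TGACGTCA for the cAMP response element, AATATT for SALL4, GGGNGGGG for KLF factors and GGAATG for TEAD factors. The intron site held 1 match, to the KLF letters, and the promoter window held 6, all to the KLF letters. Of all 32851 RefSeq promoter windows of this length 33.2% hold the KLF letters, and of the middle 300 bases of all MEF peaks 18.0% do. No GATA, SOX or FOX letters were in either stretch, which says only that these letters are not in these windows.

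Upstream of *Pth1r*, peaks differed between the SALL4 forms. A site at chr9:110765672-110766546, 18527 bp upstream of the farthest *Pth1r* start and over 2 annotated starts within *Myl3*, had ATAC-seq peaks in MEFs (294) and in all 4 SALL4-delN12 lists (171, 159, 287 and 89.98), and in SALL4-WT only at days 5 and 9 (70.0 and 50.7). H3K27ac had a peak there with SALL4-delN12 (63.1) and none with SALL4-WT. SALL4 CUT&Tag peaks within 20 kb of the gene numbered 6 with SALL4-WT and 1 with SALL4-delN12, and H3K27ac peaks 2 and 3. The SALL4 lists hold 69475 and 67310 peaks and the H3K27ac lists 19841 and 45599, and SALL4 peaks cover a start site of 49.8% and 35.997% of protein-coding genes. SALL4 peaks within 20 kb were thus fewer with SALL4-delN12 while the SALL4 lists were of nearly equal size. At a score of 100 or more they numbered 1 with SALL4-WT and 0 with SALL4-delN12. Farther upstream both forms had peaks. At chr9:110780960-110782436, centered at −34553 bp from the farthest start, the SALL4 score was 310 with SALL4-WT and 349 with SALL4-delN12, and the H3K27ac score was 152 and 396. The ATAC-seq peak there was higher than that of the intron site in all 9 lists, at 3036 in MEFs, at 897, 1625, 1465 and 1750 with SALL4-WT and at 1246, 977, 1484 and 1216 with SALL4-delN12. At chr9:110790315-110791135, centered at −43580 bp, the SALL4 score was 145 and 532, and H3K27ac had a peak with SALL4-delN12 only (207).

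A peak at chr9:110763391-110763676, 16246 bp upstream of *Pth1r*, was found in SALL4-delN12 day 11 alone (score 102). It covers the annotated start of a *Myl3* transcript, and both genes were at their highest of the SALL4 series in that library. The 255 bases of the peak before that start are shown on the plus strand, with matches to GGAATG, GGGNGGGG and ACAATNG on either strand in capitals.
Upstream bases of the Myl3 start, chr9:110763391-110763645: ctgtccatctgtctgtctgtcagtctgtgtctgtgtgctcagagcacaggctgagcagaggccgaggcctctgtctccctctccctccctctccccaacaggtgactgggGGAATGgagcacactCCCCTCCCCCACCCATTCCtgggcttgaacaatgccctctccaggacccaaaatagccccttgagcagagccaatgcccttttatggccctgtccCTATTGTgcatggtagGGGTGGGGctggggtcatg
It held 2 TEAD, 3 KLF and 1 SOX match, and 1 TEAD match overlaps a KLF match. Of the middle 255 bases of all 78491 peaks of that list, 21.9% hold the TEAD letters, 19.96% the KLF letters and 7.88% the SOX letters.

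The *Pthlh* promoter was open in every ATAC-seq list, while its RNA was near 0. All 9 ATAC-seq lists had a peak at the promoter, chr6:147263661-147264542 (highest scores 61.3 to 130), and in an intron, at chr6:147260438-147262257 (800 in MEFs and 148 to 309 with a SALL4 form). SALL4 had a peak at the intron site in both forms (184 with SALL4-WT and 260 with SALL4-delN12) and at the promoter with SALL4-WT only (73.7). H3K27ac had peaks at the promoter (94.2) and the intron site (88.9) with SALL4-delN12 and none within 20 kb with SALL4-WT. A site at chr6:147277113-147278140, 12930 bp upstream, had ATAC-seq peaks in MEFs and in SALL4-delN12 at days 1, 5 and 9, with a SALL4 peak of 218 in SALL4-delN12, and no peak in any SALL4-WT list.

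The intron site and the promoter window of *Pthlh* are shown on the minus strand, as the sites with a peak in all 9 ATAC-seq lists. Capitals mark TGANTCA in the first and GGGNGGGG on either strand in the second.
Pthlh intron site, chr6:147260766-147261065: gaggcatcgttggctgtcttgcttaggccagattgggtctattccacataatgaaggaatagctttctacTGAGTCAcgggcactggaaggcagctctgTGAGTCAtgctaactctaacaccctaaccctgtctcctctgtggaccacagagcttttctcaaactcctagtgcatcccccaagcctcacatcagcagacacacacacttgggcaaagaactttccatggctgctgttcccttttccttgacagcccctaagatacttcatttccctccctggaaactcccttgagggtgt
Pthlh promoter window, chr6:147263964-147264263: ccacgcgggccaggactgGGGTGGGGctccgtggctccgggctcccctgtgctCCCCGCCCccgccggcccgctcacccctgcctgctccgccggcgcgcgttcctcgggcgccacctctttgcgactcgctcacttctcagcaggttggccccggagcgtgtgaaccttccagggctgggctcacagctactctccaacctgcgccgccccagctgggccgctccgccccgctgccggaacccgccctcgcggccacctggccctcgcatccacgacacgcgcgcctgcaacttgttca
The intron site held 2 AP-1 matches, letters that 30.7% of the middle 300 bases of MEF peaks hold at least once. The promoter window, at 74.0% GC, held 2 KLF matches and none of the other 7 motifs.

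**Figure D5:**
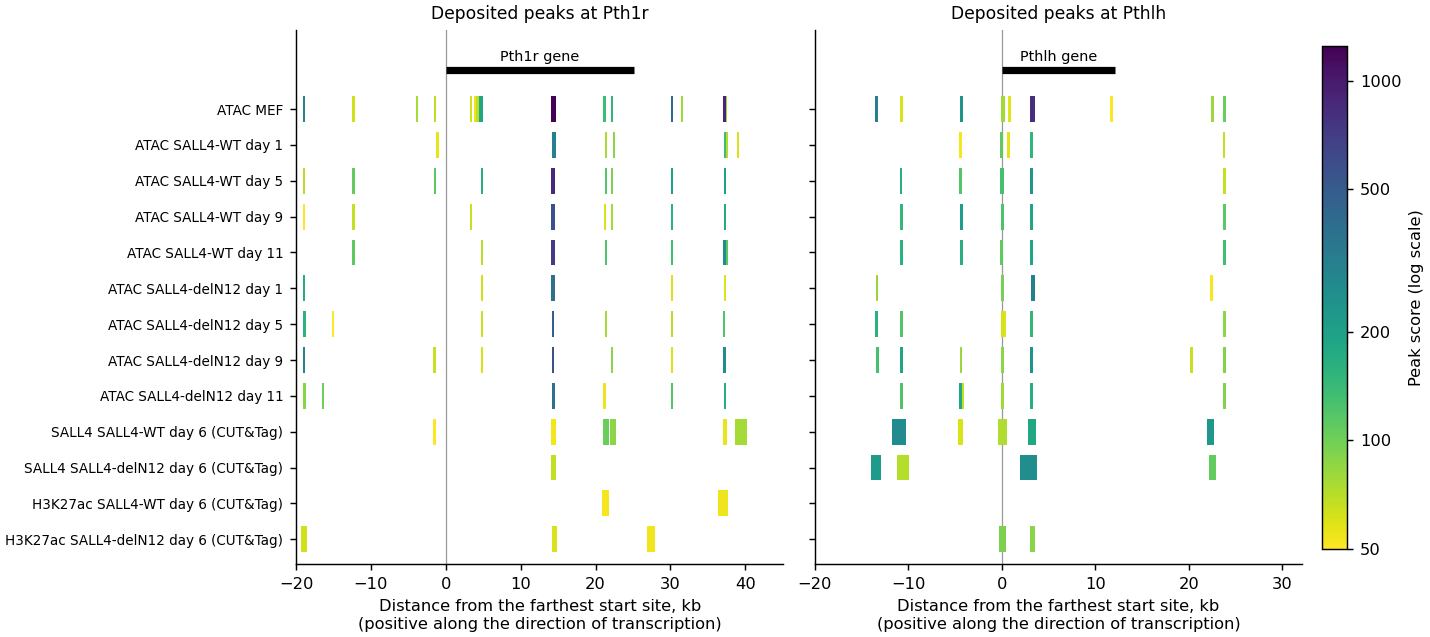
Deposited peaks at *Pth1r* (left) and *Pthlh* (right), each list on its own row, by distance in kb from the farthest annotated start site, positive along the direction of transcription. Color gives the score of each peak on a log scale, peaks narrower than 300 bp are drawn 300 bp wide, and black bars mark the genes. The intron sites had a peak in all 9 ATAC-seq lists, and the lists had 0 (SALL4-delN12 day 11) to 5 (MEFs) peaks within 2 kb of a *Pth1r* start site.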

How the data were processed

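The authors deposited FPKM values from StringTie 2.2.1 after Trim Galore 0.6.4 and HISAT2 2.2.1 on mm10, in tables of 17 and 8 libraries, UMI counts per gene and cell from STAR on mm10 with the authors' cell types, and MACS 1.4.2 peaks with a score for each peak (Bowtie2 2.4.5 and SAMtools 1.16.1). CUT&Tag replicates had been merged before peaks were called. FPKM corrects for length and library size but not for composition. A further 10749 columns of cells, whose names match no sample in the labels, were not used. The paper counts MEF and ESC cells from other work among its 30769 cells, which is also the number of all cell columns. Bulk values were compared as differences of log2(FPKM + 1) within a table, and called at 1. A library's unit was found from the steps of its low FPKM values (at least 95.9% of low values whole in the table of 17 and 87.0% in the table of 8, within 0.02), an analysis chosen after seeing the data. Also added after seeing the data was a set of limma fits of log2(FPKM + 1) (R 4.3.3, limma 3.58.1, intensity trend) with the pair as a block over 4 pairs, matched by day, factor set, or factors other than the one compared, on genes at an FPKM of 1 or more in at least 1 of the 8 libraries, with Benjamini-Hochberg adjustment over all of them. *Pthlh* was under that filter. UMIs were summed by cell type, with exact Poisson and Clopper-Pearson intervals at 95%. A count of 0 was given a limit of 3 counts. No doublet caller was run. Sequences came from RefSeq promoter windows (3 matched for Pth1r and 1 for Pthlh) and the GRCm38.p6 genome, whose chromosomes hold all peaks of the mm10 lists, and peaks were counted from 1 bp of overlap. The fold calls, the step search and the limma fits were tested on simulated data. Named genes were the members, pathway genes past a difference of 1 (at most 8 per comparison) and, for each member, the 5 genes with the highest Pearson r in bulk (FPKM of 5 or more in a library) and in single cells (20 CPM or more in a cell type). *Myl3* was added after its values were seen. The members, the lists and the rule were chosen with earlier results of these data known. Alternatives covered pseudocount, scaling, gene filters, cell assignment, deep cells, thinning, peak windows and scores. Python 3.11.15, numpy 2.4.6, pandas 2.3.3, scipy 1.17.1 and samtools 1.23.1 were used.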

Additional observations from a re-analysis of the deposited data

Results flagged for a closer look

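*Pth1r* moved in opposite directions with BMP4 in 2 pairs of settings. In bulk libraries of day 7 the difference of log2(FPKM + 1) was 1.15 in JGES and −0.62 in JGESO. In the scRNA-seq samples the ratio of BMP4+ to BMP4− in CPM was 1.99 in PrECLCs and 0.394 in intermediate cells. Each setting has 1 sample per condition, and the difference between the settings was not tested.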

How the results depend on the processing

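Each condition has 1 sample, so no replicate number could serve as a block, and libraries were paired by day, factor set or factor instead. With day as a block, the mean *Pth1r* difference between the SALL4 forms was called at 1.97 with the filter on FPKM and not called at 1.97 without it, at 2.29 without day 5, at 1.68 without day 9 and at 1.53 without day 11. The difference with Sall4 was called at 1.83 and not called at 1.83 without the filter, at 1.45 without the JGES and JGE pair with BMP4 and at 1.83 without the JGESO and JGEO pair lacking it. That with Oct4 was called only without the JGEO and JGE pair with BMP4, at 2.39. That with BMP4 over 4 factor sets turned from 0.01 to −0.37 without JGES. With a pseudocount of 0.1, the *Pth1r* difference reached 1.98 at JGES day 1 and 1.11 at day 1 with SALL4-delN12, both then called. For *Pthlh* the same pseudocount gave 1.62 and 2.52 at days 5 and 11 with SALL4-delN12, −1.51 at JGES day 5 and −1.29 in JGE, all past 1. The pathway genes that fell with SALL4-delN12 numbered 4 at day 9 and 1 at day 11. Median-ratio scaling turned the JGEO difference to −0.013. The other *Pth1r* differences kept their sign and call under both settings. Upper-quartile scaling moved JGES BMP4+ from rank 5 to rank 3 in the table of 8. In PrECLCs with BMP4, *Pth1r* was at 268 CPM without the 6% of cells with the most UMIs, at 267 CPM as a mean over cells, and at 219 CPM when cells were chosen by 3 of 6 markers, a rule that gave 100.2 CPM without BMP4. The same kind of rule put BMP4+ placenta-like cells at 66.7 CPM and endothelial cells at 13.5 CPM, against 8.92 and 5.24 CPM by annotation. In BMP4+ intermediate cells it was at 5.07 CPM without the deepest cells. Shares of PrECLCs with a *Pth1r* UMI were 36.9% and 21.1% at 2000 UMIs per cell and 92.2% and 64.8% without thinning. ATAC-seq peaks at *Pth1r*, summed over the 9 lists, numbered 14 within 2 kb of a start site, 145 within 50 kb of the gene and 37 at a score of 100 or more, and at *Pthlh* 12 within 2 kb and 30 at that score. The cause of these shifts was not tested. Day 0 to day 5 levels in JGES and all *Pthlh* levels are limited by depth.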
